A study of Mus musculus with 3 samples.

Results

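Multiple exon skipping events are places in a gene where at least 2 neighbouring exons are either all kept or all left out together. They were taken from 3 lists of transcript events, 1 for each sequenced RNA sample of mouse embryonic stem (ES) cells. Every pair of rows whose event type, without a leading X, was MSKIP was a member, and 5541 of 28784 paired ON and OFF events in WT, 5568 of 28657 in Pcgf1-/- and 5574 of 28797 in Pcgf1-/-+Pcgf1 were such pairs. In each pair the ON row carries the FPKM of the forms that hold the exons, and the OFF row that of the forms that join the flanking exons directly. FPKM is the fragment number scaled by transcript length and by the mapped fragments of the library. Matched by gene name, type and the coordinates of the exons and flanks, the lists gave 6201 events in all, after 8 ambiguous entries had been left out.

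All 3 lines were of strain C57BL/6 and were grown on mitomycin-C inactivated mouse embryonic fibroblasts with serum and leukemia inhibitory factor. WT cells carried the unaltered Pcgf1 gene. Pcgf1-/- cells (Pcgf1KO in the labels) had lost exons 2 and 3 of Pcgf1 through a pair of Cas9 cuts, and Pcgf1-/-+Pcgf1 cells (Pcgf1KO+ Pcgf1_flag) were Pcgf1-/- cells infected with a lentivirus for full-length Pcgf1 with an N-terminal Flag tag and selected with puromycin. Each genotype was sequenced as 1 sample, so no difference between genotypes has a replicate check, no p-value is given, and genotype, clone, infection and library cannot be told apart. In RNA of mixed cultures, fewer cells of a type and less RNA per cell cannot be told apart either.

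Most mammalian genes are split into exons, and the spliceosome joins them by pairing the splice sites at the ends of the introns. When the end of an upstream exon is joined to a distant downstream exon, all exons between them are removed as part of a single large intron, so that exons that code for a whole protein segment can be gained or lost together. If the bases removed are a multiple of 3 the reading frame goes on, and otherwise it usually meets an early stop codon, which can send the RNA to nonsense-mediated decay. Pcgf1 itself is a RING-type subunit of the variant Polycomb complex PRC1.1, which ubiquitinates histone H2A, and it is not known as a splicing factor.

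The sequences below show what a skip does to the RNA in 6 coding events on which the results turn, the edited gene first. They were read 5′ to 3′ from GENCODE vM21 transcripts (GRCm38, the build of the deposited coordinates). Lower case marks the skipped exons, and capitals mark the last 20 bases of the upstream exon and the first 20 bases of the downstream exon. The OFF form is the junction of these flanks alone.
Pcgf1 ON, exons 2 and 3, chr6:83078895-83079268, plus strand: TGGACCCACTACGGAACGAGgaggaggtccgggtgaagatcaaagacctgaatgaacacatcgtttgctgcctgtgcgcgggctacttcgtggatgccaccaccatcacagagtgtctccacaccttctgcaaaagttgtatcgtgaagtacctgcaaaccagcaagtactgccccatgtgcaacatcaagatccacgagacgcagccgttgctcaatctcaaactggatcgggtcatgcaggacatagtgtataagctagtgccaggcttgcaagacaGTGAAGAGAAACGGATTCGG
Pcgf1 OFF, exon 1 to exon 4: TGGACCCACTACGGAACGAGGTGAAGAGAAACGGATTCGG
Dnmt3b ON, exons 22 and 23, chr2:153683608-153684477, plus strand: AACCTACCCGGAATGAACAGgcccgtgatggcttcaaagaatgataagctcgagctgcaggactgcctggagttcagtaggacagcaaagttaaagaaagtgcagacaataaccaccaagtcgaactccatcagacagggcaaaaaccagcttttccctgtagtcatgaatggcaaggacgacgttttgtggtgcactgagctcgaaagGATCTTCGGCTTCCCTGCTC
Dnmt3b OFF, exon 21 to exon 24: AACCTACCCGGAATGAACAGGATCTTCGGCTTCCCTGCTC
Hjurp ON, exons 4 to 6, chr1:88269321-88272765, minus strand: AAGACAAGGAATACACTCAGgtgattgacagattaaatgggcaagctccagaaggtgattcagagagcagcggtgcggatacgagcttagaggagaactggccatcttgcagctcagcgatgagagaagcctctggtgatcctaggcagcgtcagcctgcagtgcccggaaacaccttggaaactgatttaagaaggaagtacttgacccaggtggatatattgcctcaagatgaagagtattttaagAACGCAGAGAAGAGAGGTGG
Hjurp OFF, exon 3 to exon 7: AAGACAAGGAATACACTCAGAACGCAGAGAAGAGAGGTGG
Zfp638 ON, exons 12 and 13, chr6:83956694-83957592, plus strand: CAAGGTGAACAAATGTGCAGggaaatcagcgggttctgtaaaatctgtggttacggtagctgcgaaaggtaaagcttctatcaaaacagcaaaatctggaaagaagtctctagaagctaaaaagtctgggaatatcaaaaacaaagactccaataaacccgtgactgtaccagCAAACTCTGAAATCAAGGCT
Zfp638 OFF, exon 11 to exon 14: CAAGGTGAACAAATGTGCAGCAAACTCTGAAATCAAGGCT
Itpr1 ON, exons 40 to 42, chr6:108423333-108432696, plus strand: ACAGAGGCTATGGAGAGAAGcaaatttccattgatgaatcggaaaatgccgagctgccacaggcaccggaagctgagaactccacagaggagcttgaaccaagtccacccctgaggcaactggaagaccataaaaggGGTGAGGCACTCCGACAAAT
Itpr1 OFF, exon 39 to exon 43: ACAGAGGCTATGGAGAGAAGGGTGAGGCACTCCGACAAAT
Mapt ON, exons 2 and 3, chr11:104287123-104289994, plus strand: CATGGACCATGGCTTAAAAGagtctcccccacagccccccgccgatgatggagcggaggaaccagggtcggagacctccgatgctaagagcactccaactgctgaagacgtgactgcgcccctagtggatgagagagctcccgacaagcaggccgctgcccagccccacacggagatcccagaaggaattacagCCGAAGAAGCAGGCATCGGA
Mapt OFF, exon 1 to exon 4: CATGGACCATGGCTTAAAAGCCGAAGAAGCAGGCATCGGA

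The edited gene was itself a member of the class. The joining of Pcgf1 exon 1 to exon 4 was listed in Pcgf1-/- and in neither of the other lists. Pcgf1-/-+Pcgf1 cells derive from the edited line, and why the joining is absent from their list was not tested. In the list of Pcgf1-/- cells the ON form of exons 2 and 3 was at 0 and the OFF form at 5.88 FPKM. The event removes 259 bases, which leaves a remainder of 1 after division by 3, and no annotated transcript has this junction. Translated from the annotated start codon, the skipped form of Pcgf1-201 kept the first 19 of 247 residues and ended after 33. The list of Pcgf1-/- cells thus carried the deleted exons as a skip, and the ON form of the unaltered gene was not found in it.

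A further Pcgf1 event, the skip of exons 4 and 5 at chr6:83079434-83079745, was in all 3 lists. Its ON form starts from the end of exon 3 and stood at 13.95 FPKM in WT, at 0 in Pcgf1-/- cells and at 7.86 in Pcgf1-/-+Pcgf1. Its OFF form, annotated for Pcgf1-204, was listed at 0 in all 3 samples. The WT and Pcgf1-/-+Pcgf1 samples were thus the 2 whose lists held RNA with exon 3 next to exon 4. In Pcgf1-/-+Pcgf1 cells the virus carried full-length Pcgf1 cDNA, in which these exons are already joined. Their value there is therefore not a measure of splicing of the Pcgf1 gene. No share can be formed for Pcgf1-/-, where both forms were at 0.

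Of the 6201 matched events, 5054 (81.5%) were in all 3 lists, 334 in 2 lists and 813 in 1 list only. The typical event was short. It skipped 2 exons in 3897 cases (62.8%), 3 exons in 1081 and 4 or more in 1223, of which 232 skipped 10 or more, up to 154 exons. The median length removed was 285 bases, and 46.6% of the events removed a multiple of 3. Of the 20815 exons counted over all events, 20646 (99.2%) were annotated exons. Pairs are not independent of each other, because an OFF form can serve several ON forms: the 5541 pairs in WT used 3787 distinct OFF rows.

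The annotation held nearly all events of the shared set and fewer of the rest. Among events in all 3 lists whose flanks were exact, the OFF junction was annotated in 99.5%. Among those in 1 list only it was annotated in 57.8%, 53.4% and 60.2% for the lists of WT, Pcgf1-/- and Pcgf1-/-+Pcgf1. The ON form was annotated in 99.4% of the shared events, against 69.7%, 72.0% and 69.1% of the events in the WT, Pcgf1-/- and Pcgf1-/-+Pcgf1 lists only.

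**Figure D1:**
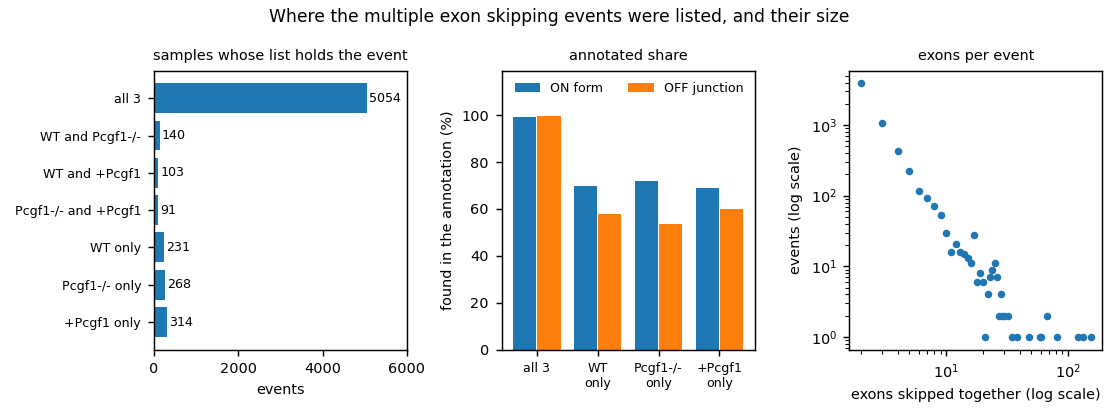
Left, number of matched events (horizontal axis) by the samples whose list holds them, with +Pcgf1 for Pcgf1-/-+Pcgf1; 5054 of 6201 are in all 3. Middle, percent of events whose ON form or, for exact flanks, OFF junction is in GENCODE vM21: 99.4% and 99.5% for events in all 3 lists, and between 53.4% and 72.0% for events in 1 list only. Right, number of events by number of exons skipped together, both axes on a log scale, from 3897 events of 2 exons to 1 event of 154.

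Many listed events had no measured form. Both forms were listed at 0 in 2538 pairs (45.8%) in WT, 2574 (46.2%) in Pcgf1-/- cells and 2505 (44.9%) in Pcgf1-/-+Pcgf1. Both forms were above 0 in 358, 347 and 389 pairs in that order of samples, which is 6.46%, 6.23% and 6.98% of the pairs. The remaining pairs had only the ON form in 2007, 1994 and 2018 cases and only the OFF form in 638, 653 and 662 cases. A form with a measured alternative was thus the exception in every list.

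The genotypes were compared on the inclusion share, the percent of ON plus OFF FPKM that the ON form held. Forms of a gene outside the event do not enter it, so a share can rest on only part of the gene's signal. An event was compared where ON plus OFF reached 1 FPKM in each sample, and a difference of at least 20 percentage points was taken as past the limit. Of the 5054 events in all 3 lists, 1995 were at 0 in every form and sample, and 1783 events under 1151 gene names reached the minimum. The median total of ON plus OFF over these was 11.5 FPKM in WT, 10.6 in Pcgf1-/- cells and 10.2 in Pcgf1-/-+Pcgf1. Exon inclusion prevailed: the ON form exceeded the OFF form in 79.0%, 79.4% and 78.6% of them. The share was 100% in all 3 samples for 1247 events, 0% in all 3 for 279, and between these in all 3 for 85.

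Between 87.5% and 87.8% of the compared events had exactly the same inclusion share in the 2 samples of a comparison, and the median difference was 0 in each comparison. Most of these were the 1247 events at 100% and 279 at 0% in all 3 samples, so the median of 0 reflects events with 1 form listed at 0. Where both forms were above 0 in both samples, the median absolute difference was 6.61, 7.98 and 6.72 points. The order is Pcgf1-/- against WT, Pcgf1-/-+Pcgf1 against Pcgf1-/- and Pcgf1-/-+Pcgf1 against WT. In Pcgf1-/- against WT, 100 of 1783 events (5.61%) passed the limit, 56 with higher and 44 with lower inclusion. Over all 11217 compared events of the lists with an ON and an OFF row, single and multiple skips and retained introns together, 8.04% passed, 3.91% higher and 4.13% lower. In Pcgf1-/-+Pcgf1 against Pcgf1-/- the count was also 100 (5.61%), 41 higher and 59 lower, beside 7.52% over all compared events (3.91% higher and 3.61% lower). In Pcgf1-/-+Pcgf1 against WT it was 103 (5.78%), 49 higher and 54 lower, beside 8.09% (3.96% higher and 4.14% lower). The count was thus close for Pcgf1-/- against WT and for the 2 samples that both expressed Pcgf1, and which of them was larger depended on the setting: with a minimum of 5 FPKM the counts were 42 and 40. These comparisons share samples, so they are not independent of each other.

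Most of these differences turned on a form listed at 0. Of the events past the limit, 90 of 100, 85 of 100 and 93 of 103 in the order above had a form at 0 in at least 1 of the 2 samples compared. Only 10, 15 and 10 had both forms above 0 in both samples. The form with the larger FPKM switched towards inclusion in 15 events and towards skipping in 9 in Pcgf1-/- against WT. It switched in 10 and 20 events in Pcgf1-/-+Pcgf1 against Pcgf1-/- and in 12 and 20 in Pcgf1-/-+Pcgf1 against WT.

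**Figure D2:**
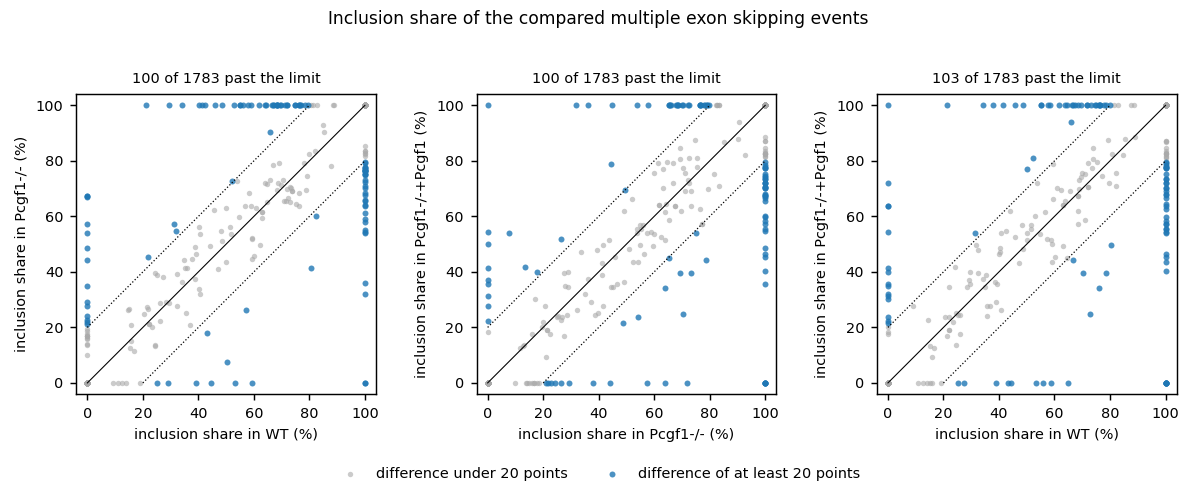
Inclusion share (percent of ON plus OFF FPKM) of the 1783 compared events in the 2 samples of each comparison, 1 point per event; the solid line marks equal shares and the dotted lines a difference of 20 percentage points. Blue points are past that limit (100, 100 and 103 events), and most lie on an edge of the panel, where a form is listed at 0 in 1 sample.

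The largest rises and falls are given for events with at least 5 FPKM in each sample and a single gene name, 1 event per gene. Among these, the largest rise of inclusion in Pcgf1-/- against WT was in Ttc3, which encodes a ubiquitin ligase with tetratricopeptide repeats. Its exons 2 to 10 at chr16:94383912-94393174 had ON and OFF forms at 3.0 and 11.1 FPKM in WT, 11.3 and 0 in Pcgf1-/- cells, and 14.4 and 0 in Pcgf1-/-+Pcgf1. The share was 21.3% in WT and 100% in both other samples, so WT alone held the form that skips these 9 exons.

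Alg6 encodes a glucosyltransferase that builds the N-glycan precursor in the endoplasmic reticulum. Its exons 4 to 8 at chr4:99738124-99743940 had ON and OFF forms at 3.31 and 4.47 FPKM in WT, 6.72 and 0 in Pcgf1-/- cells, and 3.28 and 2.70 in Pcgf1-/-+Pcgf1. The shares were 42.6%, 100% and 54.8%, and Pcgf1-/- was the sample that stood apart. The skip removes 513 bases, or 171 codons of 507 residues, in frame.

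Zfp106, a zinc finger protein that binds RNA, had exons 4 and 5 (2367 bases, in frame) at chr2:120533511-120539492. The ON form was at 0 in WT, 24.2 FPKM in Pcgf1-/- cells and 12.9 in Pcgf1-/-+Pcgf1, and the OFF form at 60.3, 20.6 and 41.5. The share thus was 0%, 54.1% and 23.8%, with Pcgf1-/-+Pcgf1 between the others. The gene total, the larger of its first-exon and last-exon sums, was 60.3, 78.7 and 54.4 FPKM in the same order. In Pcgf1-/- a part of it lay in forms outside this event, so the 54.1% rests on only part of the gene's signal.

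Sars, the seryl-tRNA synthetase, was the most abundant of these genes. The form with exons 5 and 6 (300 bases, in frame, chr3:108431465-108433161) stood at 114 FPKM in WT, 105 in Pcgf1-/- cells and 77.2 in Pcgf1-/-+Pcgf1. The form without them stood at 56.9 FPKM in WT and was listed at 0 in both other samples. The ON form alone had its highest value in WT, so the rise from 66.8% to 100% came with a lower ON level and no listed OFF form. The gene total, the larger of its first-exon and last-exon sums, was 252, 141 and 177 FPKM. In every sample, part of the gene's signal thus lay in forms outside this event.

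Other rises of the first 10 followed these patterns. Calu, which encodes a calcium-binding protein of the endoplasmic reticulum, went from 61.8% in WT to 100% in both other samples, and Eml4, a microtubule-associated protein gene, from 66.4% to 100% in both. Ube3a, a ubiquitin ligase gene, was at 0% in WT, 35.0% in Pcgf1-/- cells and 32.1% in Pcgf1-/-+Pcgf1. Tjap1, which encodes a tight junction-associated protein, and C2cd5, which encodes a C2 domain protein, reached 100% in Pcgf1-/- only. Tjap1 was at 69.4% in WT and 74.1% in Pcgf1-/-+Pcgf1, and C2cd5 at 71.2% and 75.4%. Gene totals in WT, Pcgf1-/- and Pcgf1-/-+Pcgf1 were 55.7, 56.2 and 54.3 FPKM for Calu and 24.5, 23.8 and 28.2 for Eml4. For both genes a part of this signal lay outside the event in every sample. The Tjap1 ON form in Pcgf1-/- was at 14.5 FPKM, beside a gene total of 19.5.

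The largest fall of inclusion in Pcgf1-/- against WT among these events was in Cnot2, a subunit gene of the CCR4-NOT deadenylase. Its 2 exons at chr10:116527827-116537278 had an ON form at 4.73 FPKM in WT and at 0 in both other samples, with an OFF form at 4.15, 7.18 and 5.79 FPKM. The share was 53.2% in WT and 0% in the others. The gene total was 25.3 FPKM in WT, 22.9 in Pcgf1-/- cells and 21.5 in Pcgf1-/-+Pcgf1. In every sample most of the gene's signal thus lay in forms outside this event. The annotated transcript that holds these exons, Cnot2-211, is a nonsense-mediated decay form, so here the skip is the protein-coding arrangement.

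Hjurp is the chaperone that places the centromeric histone CENP-A. The form with exons 4 to 6 was at 37.3 FPKM in WT, 10.6 in Pcgf1-/- cells and 28.3 in Pcgf1-/-+Pcgf1, and the skip printed above was listed at 0, 7.69 and 0. The share was 57.9% in Pcgf1-/- and 100% in both samples that express Pcgf1. The gene total, the larger of its first-exon and last-exon sums, was 37.3 FPKM in WT, 33.3 in Pcgf1-/- cells and 28.3 in Pcgf1-/-+Pcgf1. The ON form made up this total in WT and Pcgf1-/-+Pcgf1. In Pcgf1-/- a part of it lay in forms outside the event, so the 57.9% rests on only part of the gene's signal. The skip removes 228 bases, 76 codons of 667 residues, in frame, and is annotated as the protein-coding transcript Hjurp-202.

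Zfp638, a zinc finger gene whose product binds nucleic acids, differed in the same direction in both lines derived from the edit. Its exons 12 and 13 (153 bases, 51 codons) had ON and OFF forms at 6.81 and 0 FPKM in WT, 5.79 and 4.04 in Pcgf1-/- cells, and 6.08 and 5.11 in Pcgf1-/-+Pcgf1. The share was 100%, 58.9% and 54.3%. The ON level stayed between 5.79 and 6.81 FPKM while the OFF form was above 0 in 2 of 3 samples.

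Itpr1 encodes the inositol trisphosphate receptor, a calcium channel of the endoplasmic reticulum. Exons 40 to 42 (117 bases, 39 codons of 2748 residues) had ON and OFF forms at 7.32 and 0 FPKM in WT, 3.27 and 1.85 in Pcgf1-/- cells, and 0 and 6.05 in Pcgf1-/-+Pcgf1. The share was 100%, 63.9% and 0%, which made it the largest fall of Pcgf1-/-+Pcgf1 against WT among the events named by this rule.

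Smc1a, a core subunit gene of cohesin, had a form without exons 2 and 3 (chrX:152022746-152023151) in both edited lines and none listed in WT. The ON form was at 23.1 FPKM in WT, 15.7 in Pcgf1-/- cells and 15.3 in Pcgf1-/-+Pcgf1, and the OFF form at 0, 8.77 and 8.38. The shares were 100%, 64.2% and 64.6%. The skip takes out 302 bases, which shifts the frame: the translation kept the first 36 of 1233 residues and ended after 54, and the annotated transcript with this junction, Smc1a-206, is a nonsense-mediated decay form.

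Of the remaining falls, Dtx3, a ubiquitin ligase gene, was at 100% in WT, 55.2% in Pcgf1-/- cells and 55.5% in Pcgf1-/-+Pcgf1. R3hdm1, whose product has an R3H nucleic acid-binding domain, went from 39.1% in WT to 0% in both others. Trnau1ap, a selenocysteine tRNA-associated protein gene, was at 100%, 73.2% and 63.8%, and Zc3h14, which encodes a poly(A)-binding zinc finger protein, at 100%, 75.3% and 80.9%. Brwd1, a bromodomain gene, was at 57.2%, 26.3% and 51.9%, with both forms above 0 in every sample. The gene total was 19.6, 9.43 and 8.66 FPKM for R3hdm1 and 14.2, 17.4 and 17.8 for Brwd1. Part of it lay outside the event for R3hdm1 in WT, and for Brwd1 and Dtx3 in every sample. The same was so for Trnau1ap in WT and Pcgf1-/-+Pcgf1.

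**Figure D3:**
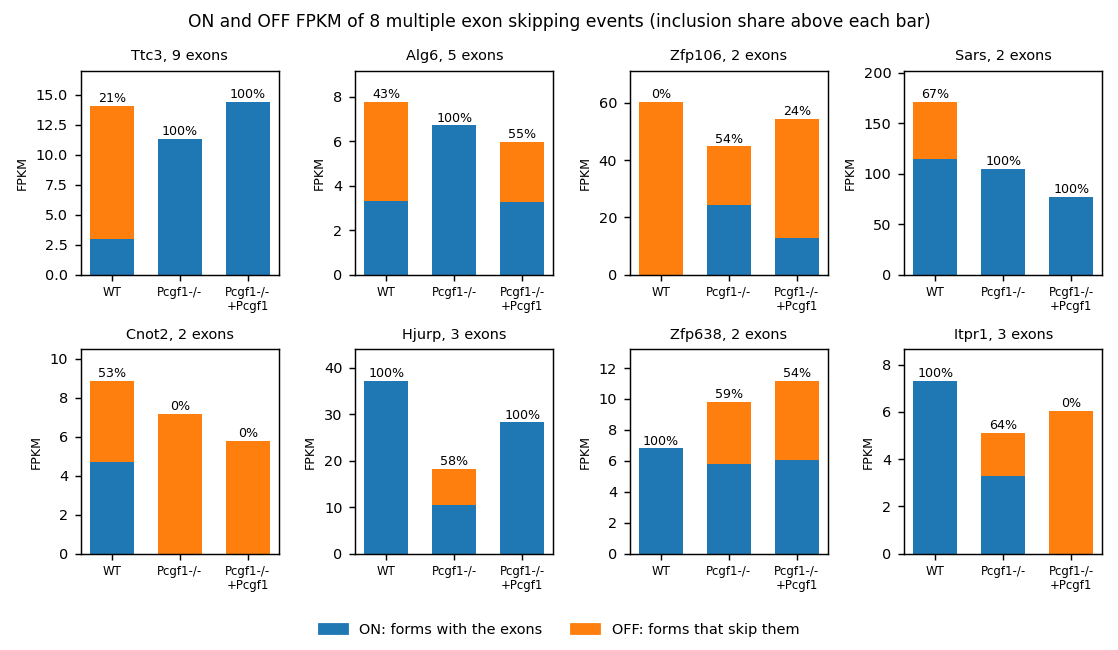
ON (blue) and OFF (orange) FPKM, stacked, of 8 events in the 3 samples, with the inclusion share in percent above each bar; there is 1 sample per bar and no error bar. Ttc3, Alg6, Zfp106 and Sars had higher inclusion in Pcgf1-/- than in WT, and Cnot2, Hjurp, Zfp638 and Itpr1 lower, and in each panel the WT bar or the Pcgf1-/- bar has a single colour because the other form is listed at 0.

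In Pcgf1-/-+Pcgf1 against Pcgf1-/-, where Pcgf1 was restored from a virus, the largest rise among events of at least 5 FPKM with a single gene name was that of Hjurp, given above. Bcas3, at exons 26 and 27, had an ON form at 0 in WT, 0 in Pcgf1-/- cells and 4.05 FPKM in Pcgf1-/-+Pcgf1, and its share went from 0% in the first 2 samples to 35.7%. Cog6, a subunit gene of a Golgi tethering complex, was at 73.0% in WT, 65.3% in Pcgf1-/- cells and 100% in Pcgf1-/-+Pcgf1 over 8 exons with approximate flanks. Uimc1, a gene of the BRCA1-A complex, was at 76.4%, 68.5% and 100%, and Ndor1, which encodes a diflavin reductase, at 63.9%, 72.1% and 100%. In Cog6, Uimc1 and Ndor1 the OFF form was above 0 in WT and Pcgf1-/- and listed at 0 in Pcgf1-/-+Pcgf1.

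A smaller set in this comparison had the OFF form in Pcgf1-/- alone. Senp6, a SUMO protease gene, was at 100% in WT, 76.7% in Pcgf1-/- cells and 100% in Pcgf1-/-+Pcgf1. Slc9a8, a sodium-proton exchanger gene, was at 100%, 76.4% and 100%, and Slc8b1, the mitochondrial sodium-calcium exchanger gene, at 100%, 77.8% and 100%. The OFF forms behind these shares were between 1.51 and 2.73 FPKM.

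Under the same minimum of 5 FPKM, the largest fall in Pcgf1-/-+Pcgf1 against Pcgf1-/- was in Slc30a9, a zinc transporter gene. Its exons 2 and 3 of Slc30a9-208 (157 bases, chr5:67324677-67326952) had ON and OFF forms at 6.16 and 3.33 FPKM in WT and 5.86 and 2.31 in Pcgf1-/- cells. In Pcgf1-/-+Pcgf1 they were at 0 and 8.41, and the shares were 64.9%, 71.7% and 0%. An event of 160 bases that starts at 67324674 has the same end and the same OFF values. Its ON form was at 8.95, 5.53 and 2.80 FPKM, so the 0% holds for the 157-base event and inclusion was still listed in Pcgf1-/-+Pcgf1. Armcx1, which encodes a mitochondrial armadillo repeat protein, was at 76.1%, 63.9% and 34.3%, with all 6 values above 0. Smpd4, a sphingomyelinase gene, was at 72.0%, 100% and 70.6%, and Uqcc1, an assembly factor gene of respiratory complex III, at 100%, 100% and 71.9%. Pcbp3, which encodes a poly(C)-binding protein, was at 100%, 100% and 73.5% at exons 12 and 13, while a second Pcbp3 event, at 3 exons near its start, differed in the other direction, at 0%, 17.6% and 39.8%. The Pcbp3 gene total was 18.3, 64.2 and 11.6 FPKM, so most of its signal in Pcgf1-/- lay outside both events. In Pcgf1-/- and Pcgf1-/-+Pcgf1 the ON value of the first event, 8.74 and 7.01 FPKM, was also the OFF value of the second. The 2 events are thus not independent. In Slc30a9, Armcx1 and Uqcc1 it was Pcgf1-/-+Pcgf1 that stood apart from both other samples, and in Smpd4 it was Pcgf1-/-.

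In Pcgf1-/-+Pcgf1 against WT, Ttc3 and Calu were again among the 4 largest rises under that minimum, and Itpr1, Slc30a9 and Cnot2 were the 3 largest falls. Btrc, which encodes the F-box protein beta-TrCP, was added by this comparison. Its ON and OFF forms were at 6.89 and 3.58 FPKM in WT, 4.81 and 0.509 in Pcgf1-/- cells, and 10.7 and 0.700 in Pcgf1-/-+Pcgf1. The shares were 65.8%, 90.4% and 93.8%, so both edited lines lay above WT with both forms measured.

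The events with both forms above 0 in all 3 samples allow a comparison that does not turn on a value of 0. There were 85, in 77 gene names. The range of their inclusion share over the samples had a median of 12.2 percentage points, with quartiles of 7.13 and 16.6. In 31 events it was under 10 points and in 19 it was at least 20. The genes in the next paragraph were chosen after their values had been seen.

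Nop58 encodes a core protein of box C/D small nucleolar ribonucleoproteins, and its locus, listed as Nop58,Gm26293, held the largest differences of this kind involving Pcgf1-/-. The form with the 2 exons was at 59.7 FPKM in WT, 8.56 in Pcgf1-/- cells and 78.1 in Pcgf1-/-+Pcgf1, and the form without them at 59.1, 105 and 66.7. The share was 50.3%, 7.52% and 53.9%, with Pcgf1-/- apart from the others. Mark3, a microtubule affinity-regulating kinase gene, was at 21.9%, 45.3% and 34.5% over 2 exons of 72 bases in all. Ceacam1, a cell adhesion gene, was at 80.5%, 41.6% and 49.7%, and Abcd4, a transporter gene, at 82.3%, 60.0% and 75.6%. Among falls found in Pcgf1-/-+Pcgf1, Erbb2ip was at 78.7%, 69.4% and 39.5%, and Dcun1d2 at 70.3%, 73.3% and 39.5%. The 160-base Slc30a9 event given above, which shares its OFF values with the 157-base event, was at 72.9%, 70.5% and 25%.

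At the other end of this set the shares differed by a few points over the 3 samples. Kifc3, a kinesin gene, was at 48.6%, 51.0% and 48.4% in WT, Pcgf1-/- and Pcgf1-/-+Pcgf1. Sh3glb1, which encodes endophilin B1, was at 15.3%, 12.6% and 13.1%. The 12 exons of Prrc2a at chr17:35158393-35163046 were at 69.8%, 71.3% and 75.6%, with ON forms between 49.6 and 57.9 FPKM. Among the most abundant events with both forms, Ewsr1, an RNA-binding protein gene, was at 65.8%, 73.1% and 69.0%. The Gnb2 locus (Epo,Gnb2,Mir6418) was at 56.7%, 63.9% and 61.6%, and the Cct6a locus (Cct6a,Snora15), for a chaperonin subunit, at 23.4%, 20% and 22.0%.

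Polycomb genes had few measured events and none past the limit. Of 40 PRC1 genes, 11 had an event, 17 in all, of which 3 were compared and 0 passed in any comparison, and of 15 PRC2 genes 6 had an event, of which 5 of 18 were compared and 0 passed. Hdac2 and Mga were at 100% in WT, and Pcgf2, the gene of another Pcgf subunit, was listed at 0% in WT with an OFF form at 21.8 FPKM. In the PRC2 list, the compared Suz12 event was listed with the skip alone, at 7.41 FPKM in WT. Mtf2 had 2 compared events, both at 26.7 FPKM in WT: at chr5:108069162-108073454 only the skip was listed and at chr5:108080825-108081218 only the inclusion. No event of 31 pluripotency genes and none of 24 lineage genes of the study was compared, so nothing can be said of them here. The share past the limit over all compared multiple exon skips was 5.61%, 5.61% and 5.78% in the order of comparisons used above. With so few compared Polycomb events, a count of 0 is near that share.

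Splicing factors had more events and also none past the limit. Of 72 genes, 23 had an event, and 27 of 67 events in 17 genes were compared with 0 past the limit in each comparison. Over all compared multiple exon skips, 5.61%, 5.61% and 5.78% passed in the order of comparisons used above. Their median difference was 0, as it was over all 1783 events. Esrp1, an epithelial splicing regulator gene, was at 26.1%, 28.7% and 24.6% in WT, Pcgf1-/- and Pcgf1-/-+Pcgf1, with ON forms between 4.06 and 6.09 FPKM. Rbm39 and Taf15 were listed with the skip alone in WT, with OFF forms at 70.8 and 83.7 FPKM, and Hnrnpa2b1 with the inclusion alone, with an ON form at 305 FPKM. Tial1 had both kinds: the exons over chr7:128443807-128448719 were listed with the inclusion alone in WT and those over chr7:128446731-128447107 with the skip alone, each at 33.0 FPKM. Among 16 compared events of DNA repair and cell cycle genes 0 passed, and among 2 of DNA methylation genes 0 passed. With so few events, a count of 0 is near the share over all compared multiple exon skips and sets none of these lists apart.

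Chromatin enzymes and cytoskeletal genes had single cases. Of 16 compared events of lysine methyltransferases, demethylases and remodellers, 2 passed in Pcgf1-/- against WT, both in Kmt2c, a gene for an H3K4 methyltransferase, over the same 378 bases. The event with exact flanks was at 63.8% in WT, 100% in Pcgf1-/- cells and 65.5% in Pcgf1-/-+Pcgf1, with an OFF form at 0.841, 0 and 1.21 FPKM. The event with approximate flanks was at 56.0%, 100% and 0%, with an ON form at 1.07, 1.43 and 0 FPKM. Both Kmt2c events were thus also past the limit in Pcgf1-/-+Pcgf1 against Pcgf1-/-, with lower inclusion, and the second also in Pcgf1-/-+Pcgf1 against WT. These counts are 12.5%, 12.5% and 6.25% of the 16 events in the order of comparisons used above, beside 5.61%, 5.61% and 5.78% of all compared multiple exon skips. Of 35 compared events of adhesion, cytoskeleton and ES cell splicing genes, 2 passed in Pcgf1-/- against WT and 2 in Pcgf1-/-+Pcgf1 against Pcgf1-/- (5.71% each, a share near the 5.61% of all compared multiple exon skips). These were in Mapt and in Ank3, which encodes ankyrin G. Mapt encodes the microtubule-associated protein tau, and its exons 2 and 3 code for the N-terminal inserts. The ON form of Mapt was at 0, 1.57 and 0 FPKM and the OFF form at 3.25, 1.16 and 2.15, which gives 0%, 57.4% and 0%. In Ank3 the share was 0%, 21.8% and 0%, with an ON form of 0.513 FPKM in Pcgf1-/-. These levels are low, so the shares rest on little signal.

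Dnm1l, the gene of a dynamin-like protein that divides mitochondria, was in the same list and had both forms in every sample. The form with its 2 exons of 111 bases in all held 40.3% in WT, 33.7% in Pcgf1-/- cells and 47.0% in Pcgf1-/-+Pcgf1. None of its differences reached 20 points.

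Events listed in 1 sample only numbered 231, 268 and 314 for WT, Pcgf1-/- and Pcgf1-/-+Pcgf1, which is 3.73%, 4.32% and 5.06% of the matched events. Part of them were the same exons under another name of the locus. When names were set aside and type, coordinates and patterns were still matched, 158, 185 and 194 remained. Exons with exact flanks in 1 list and approximate flanks in another still count as different events in this match. The names at a locus are those of all genes in 1 assembled unit, and they differed between samples where units had merged.

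Dnmt3b, a de novo DNA methyltransferase gene, is an example. Its exons 22 and 23 code for part of the catalytic region, and the skip removes 63 codons of 860 residues in frame and is annotated in 4 transcripts. The event was listed as Dnmt3b in WT and as Dnmt3b,Gm14490 in the other samples. The ON form was at 98.8 FPKM in WT, 97.5 in Pcgf1-/- cells and 94.2 in Pcgf1-/-+Pcgf1, and the OFF form at 32.4, 21.8 and 40.7. The share was 75.3%, 81.7% and 69.8%, so that no pair differed by 20 points. The same held for Skp1a, a ubiquitin ligase adaptor gene of the PRC1.1 complex. Its skip at chr11:52238251-52242474 was listed under 4 joined names in WT at 345 FPKM, and as Skp1a at 349 in Pcgf1-/- cells and 308 in Pcgf1-/-+Pcgf1, with the ON form at 0 throughout. Nedd4, Cse1l, Psmd11 and Senp3 events were likewise found in the other lists by coordinates.

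Other events remained in 1 list by type, coordinates and patterns too. In WT, the Lmnb1 event, in the gene of lamin B1, had approximate flanks. Both of its forms were at high levels, 135 FPKM with and 44.7 without the 2 exons. Uchl3, a ubiquitin hydrolase gene with an event also listed in WT alone, was at 87.8 and 0. In Pcgf1-/-, besides Pcgf1 itself, Canx, the calnexin gene, was at 134 and 0 FPKM with approximate flanks. In Pcgf1-/-+Pcgf1, Snx5, a sorting nexin gene, was at 237 and 0. An entry in 1 list with an OFF form at 0, as in Uchl3, Canx and Snx5, thus carries no measured skip.

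The longest events with both forms at 1 FPKM or more were in Firre, Ranbp2, Crybg3 and Prrc2a. Firre is a long non-coding RNA gene of the X chromosome built of many repeated exons. Its event of 15 exons was at 2.00 and 3.45 FPKM (ON and OFF) in WT, 0.740 and 1.47 in Pcgf1-/- cells, and 0.408 and 0 in Pcgf1-/-+Pcgf1, and an event of 17 exons with the same ends was listed in WT only at 1.08 and 3.45. Firre levels were thus highest in WT, and the sum of forms in Pcgf1-/-+Pcgf1 was too low for the comparison. Ranbp2, a nuclear pore gene, had a skip of exons 2 to 15 in Pcgf1-/- only, at 2.96 FPKM beside 19.4 for inclusion, and Crybg3 a skip of 13 exons in WT only, at 2.06 beside 3.87. Neither junction is annotated, and both remove a multiple of 3, 2130 and 1404 bases.

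Beside the 5.61%, 5.61% and 5.78% of multiple exon skips, 9.4%, 9% and 9.49% of the single exon skips of the same lists passed the limit in the order of comparisons used above. Both forms were measured in a smaller share of the multiple exon skips: 100 of 1783 had them in both samples of Pcgf1-/- against WT, against 1094 of 7620 single skips. Within the events with both forms in both samples, 10, 15 and 10 multiple skips (10%, 13.5% and 9.62%) passed, against 14.3%, 14.4% and 14.7% of single skips. Events are not replicates of a genotype, so these shares are given with no test.

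**Figure D4:**
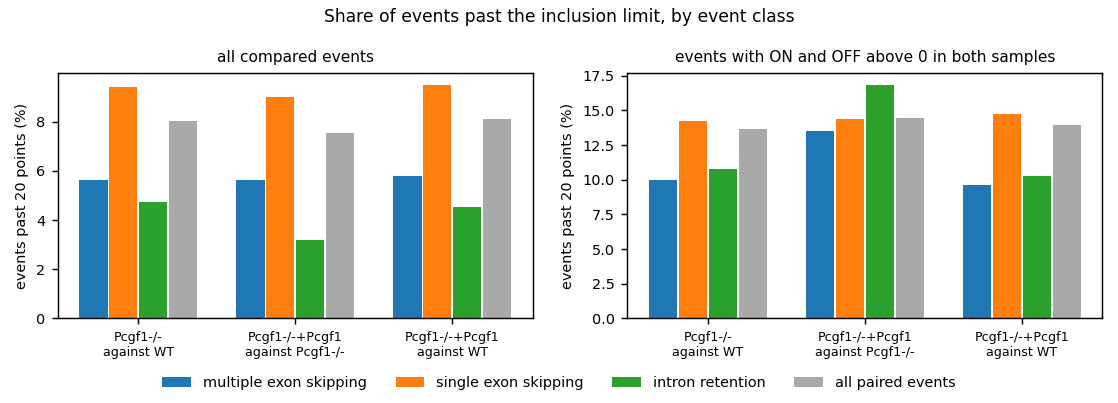
Percent of compared events past 20 percentage points (vertical axes, which differ in scale and start at 0) for each comparison, by event class; the left panel has all compared events and the right panel those with both forms above 0 in both samples. Multiple exon skipping (blue) is at 5.61%, 5.61% and 5.78% on the left, below single exon skipping (orange) at 9% to 9.49%, and rests on 100, 111 and 104 events on the right.

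Over all events, those past the limit removed a multiple of 3 at about the rate of the compared set. Among wholly coding skips, where the frame matters, the rate was higher past the limit in each comparison, with no test run. A multiple of 3 was removed in 50.3% of the 1783 compared events and in 54%, 54% and 51.5% of those past the limit. Where the skipped exons were coding over their whole length, it was 54.7% of 1360 compared events and 66.2% of 74, 58.7% of 75 and 59.5% of 74 past the limit in the 3 comparisons. Events past the limit skipped 2 exons in 72%, 72% and 74.8% of cases, against 64.0% of the compared set.

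All 3 samples had the markers of ES cells. Of 8 fixed markers, 6 were measured under names of their own, and their FPKM summed to 1908 in WT, 1908 in Pcgf1-/- cells and 1720 in Pcgf1-/-+Pcgf1. Of 15 fibroblast markers 12 were measured, with sums of 133, 87.8 and 98.2, of which Fn1, which ES cells also express, made up 110, 75.7 and 74.9, and Postn was at 0 in all 3. The part of feeder RNA in the inclusion shares was not tested.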

How the data were processed

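RNA of 3 samples of mouse ES cells, 1 per genotype, was sequenced after poly(A) selection. Per the submitters' processing notes, TopHat2 2.0.12, Cufflinks 2.2.1 and HTSeq 0.6.0 were used with mm10. The authors deposited 1 list of transcript events per sample, with the FPKM of each form. Which software produced the lists is not given in the sources used here. The files hold no counts, so the depth is unknown and no interval is given. Assembled transcripts divide a gene's fragments among forms, so an FPKM of 0 can be a form that was not assembled or not estimated.

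Rows were paired as they stand, the ON row before the OFF row. An X before the type marks approximate flanks. OFF patterns had been damaged by a spreadsheet and lack their last digits, so OFF junctions were taken from the flanks in the ON row for the exact type only. Events were matched by gene name, type, chromosome, strand, start, end and both patterns, and entries that repeat in a list were left out. The inclusion share was ON divided by ON plus OFF, in percent, for events with at least 1 FPKM in each of 3 samples, with no pseudocount, and the limit was 20 percentage points. With 1 sample per genotype no test was run. Scripts were tested on simulated data.

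Exon numbers, coding regions and sequences came from GENCODE vM21. The text names Pcgf1, per comparison the 10 largest rises and 10 largest falls with at least 5 FPKM in each sample, a single gene name and 1 event per gene, every event past the limit in 9 gene lists, 5 events per list with the highest FPKM among those in 1 list only, the 5 with most exons and both forms at 1 FPKM or more, and the 5 of highest WT total with shares of 10 to 90%. Some items that this rule names are not reported here. Other genes are named as chosen after their values were seen or to give the levels of a list. The members and lists were chosen with earlier results of these data known. The alternatives were another minimum, pseudocount, limit, matching and set of names. Python 3.11.15, numpy 2.4.6, pandas 2.3.3 and matplotlib 3.10.9 were used.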

Additional observations from a re-analysis of the deposited data

How the results depend on the processing

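The counts of events past the limit are given for Pcgf1-/- against WT, Pcgf1-/-+Pcgf1 against Pcgf1-/- and Pcgf1-/-+Pcgf1 against WT, in this order, where the reported counts were 100, 100 and 103. A minimum of 5 FPKM gave 42, 35 and 40, and no minimum gave 202, 207 and 229. A pseudocount of 1 FPKM gave 61, 53 and 64, and a limit of 30 points gave 57, 54 and 67. Only events with both forms above 0 in both samples, a setting chosen after seeing the data, gave 10, 15 and 10. With a pseudocount of 0.1 FPKM, without approximate flanks, without joined or missing names, or with names set aside in matching, the counts stayed within 1.5 times the reported ones. The same held when events were counted once per gene name (added after seeing the data). The 813 events in 1 list became 537 with names set aside in matching and 527 without joined or missing names. They became 657 without approximate flanks and 612 when matched by name, start and end alone, the last added after seeing the data. Of the 69 named differences, 69 kept their direction and stayed past the limit with a pseudocount of 0.1 FPKM and 59 with 1 FPKM, where the other 10 kept their direction and fell below the limit. No paired analysis was possible because each genotype has 1 sample. Depth is unknown, so a form listed at 0 cannot be told from a form too rare to be assembled.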

Other observations

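Other events with both forms above 0 in every sample lie in genes with well-known isoforms, and they are given as values chosen after they had been seen. App, the amyloid precursor protein gene, had 2 exons of 225 bases in all with inclusion shares of 70.9%, 65.5% and 58.7% in WT, Pcgf1-/- and Pcgf1-/-+Pcgf1 cells. Pecam1, an adhesion gene, was at 24.4%, 13.2% and 13.6% over 2 exons of 80 bases. Rims2, a synaptic scaffold gene, was at 32.3%, 39.3% and 47.7%, and Map4k4, a kinase gene, at 60.2%, 45.8% and 45.3%. Trrap, which encodes a subunit of histone acetyltransferase complexes, was at 38.8%, 37.3% and 29.0%, and Meaf6, another such gene, at 40.6%, 53.6% and 53.9%. None of these differences reached 20 points, and none has a replicate check.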
